A study of Mus musculus with 96 samples.

Results

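Brown adipose tissue (BAT) of SIRT1 transgenic mice was compared directly with BAT of mice that had run in wheel cages, on 12 of the 96 bead arrays of the study, chosen by their labels of tissue and condition. The 6 SIRT1Tg arrays came from male SIRT1Tg/Tg mice with free access to a low fat diet. The 6 EX arrays came from male WT (C57/Bl6) mice on the same diet that had a running wheel in the cage for 10 weeks. The 2 groups thus differ in genotype and in exercise at once. The strain background of the transgenic mice, the promoter of the transgene, the number of founder lines, the ages and the distances run are not stated in the labels. Sedentary WT (C57/Bl6) mice (6 arrays) and WT mice on a caloric restriction that the labels call EODF for 3 months (CR, 6 arrays) complete the 24 BAT arrays and are used here for reference levels. All 4 conditions shared a fast of 12 hours before tissue was taken at 8 a.m., per the labels. Each array carried RNA of a single numbered animal. All 6 EX animals have numbers below 2000, while 3 of the 6 SIRT1Tg animals have such numbers and 3 have higher ones. The sources used here do not say what the number series stands for, so the comparison was repeated with the 3 SIRT1Tg animals of the lower numbers against the same 6 EX animals.

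SIRT1 is an NAD-dependent deacetylase that acts on histones and on regulators such as PGC-1alpha, p53 and FoxO proteins, and it is studied as a link between nutrient state and mitochondrial fuel use. Brown adipocytes burn fatty acids and glucose and release the energy as heat through the uncoupling protein UCP1, and they are supplied by a dense capillary network and by sympathetic nerves. Voluntary running is, like SIRT1 activation, widely studied as a way to change oxidative metabolism, which makes the direct contrast between them the question of this comparison.

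The arrays carried the signature of brown fat. Ucp1, the uncoupling protein itself, averaged 13.44 ± 0.15 (SD, n = 6) on SIRT1Tg and 13.26 ± 0.27 (SD, n = 6) on EX arrays, in log2 normalised signal, the scale of all levels below. Cidea, a lipid droplet protein abundant in brown fat, stood at 13.65 ± 0.07 and 13.66 ± 0.07. The brown adipocyte identity list has 10 members, of which 8 were measured, while Dio2 and Otop1 were not among the features kept. All 8 measured members were above background on every one of the 12 arrays. Only probes above background on 6 or more BAT arrays were kept, so their detection was partly set by that filter. None of the 8 differed between the groups past the threshold, a Benjamini-Hochberg adjusted p under 0.05 over 10025 features in limma. Between 11536 and 12689 probes per array were detected on the 12 arrays, whose mean raw signal ran from 231 to 277.

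Some arrays also carried RNA of skeletal muscle, which lies next to the interscapular depot. The mean level over 20 fast fibre genes (among them Ckm, Acta1 and Myh4) ran from 4.64 to 8.92 on the SIRT1Tg arrays, with a median of 4.78, and from 4.68 to 10.95 on the EX arrays, with a median of 7.92. Arrays were marked as high in muscle genes where this level passed 7.58, which is the median of the 24 BAT arrays plus 1. These were SIRT1Tg_2222 (8.92), EX_1969 (8.39), EX_1970 (10.88) and EX_1972 (10.95), named by condition and animal number. On these 4 arrays the fast fibre genes stood at a median of 3.91%, 3.16%, 14.4% and 20.8% of their signal on WT muscle arrays. EX_1974 lay just under the line at 7.44. The 3 SIRT1Tg arrays of the lower numbers were among the lowest, at 4.64 to 4.72. The groups overlapped, and the difference of -2.20 gave an exact two-sided permutation p of 0.134 over 924 splits, or p = 0.0714 for -3.17 over 84 splits in the lower numbers. Of the 20 genes none passed the threshold, and all 20 had a negative difference with a median of -2.26. Without the 4 marked arrays that median was -0.65. The comparison was therefore also made without these 4 arrays, that is for 5 SIRT1Tg against 3 EX arrays.

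**Figure D1:**
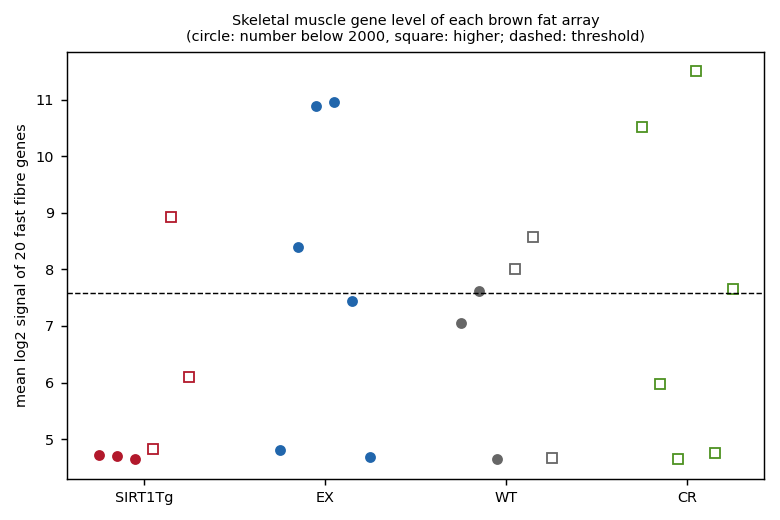
Mean log2 normalised signal of 20 fast fibre skeletal muscle genes on each of the 24 BAT arrays, by condition. Each point is 1 array, circles are animal numbers below 2000, squares higher numbers, and the dashed line is the threshold of 7.58: 1 SIRT1Tg and 3 EX arrays lie above it.

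Over all animals 51 of 10025 features (0.509%) differed between SIRT1Tg and EX BAT. Of these, 27 (0.269%) were higher in SIRT1Tg and 24 (0.239%) lower, and 49 carry a gene symbol. The largest differences were those of Sfxn1, lower, and Sirt1, higher. Dlk1, Ccnd1, Plvap, Cav1 and Cav2 were among those higher, and Trp53inp1, Aspg, Ppm1k and Esrrb among those lower. The smallest difference among the 51 was 0.38 in size and the median size 0.65. All arrays of one group lay above all arrays of the other for 42 of the 51, against 156 of all 10025 features (1.56%). At an unadjusted p under 0.05 there were 1337 features (13.3%). In the 3 SIRT1Tg animals of the lower numbers against EX, 14 features (0.14%) passed, 6 higher (0.0599%) and 8 lower (0.0798%), with 1286 (12.8%) at an unadjusted p under 0.05. All 51 features of the full comparison had the same sign there, and 7 of them passed: Sirt1, Plvap and Ccnd1 higher, and Sfxn1, Pbld2, Aspg and Fn3krp lower. These 3 animals are part of the full comparison, so the shared sign is a description. The 7 others, named after their values were seen, were Prcp, Cavin2 and Eln, higher, and Garnl3, Nudt16, Zfp738 and a probe without a symbol, lower. Without the 4 arrays high in muscle genes only Sirt1 and Sfxn1 passed, while all 51 kept their sign. The other 25 named genes past the threshold then differed by 0.47 to 1.3 on the higher side and by -1.15 to -0.49 on the lower side (adjusted p = 0.131 to 0.47). With the muscle level as a covariate, which keeps all 12 arrays, Sfxn1, Sirt1 and Fn3krp alone passed, and the other 24 named genes had adjusted p = 0.0571 to 0.155. In BAT the SIRT1Tg arrays lay on 3 slides and the EX arrays on 6 others, with 0 slides in common, so slide and condition cannot be told apart among these 12 arrays. With slide as a fixed term over 96 arrays Sfxn1, Dlk1 and Trp53inp1 passed.

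**Figure D2:**
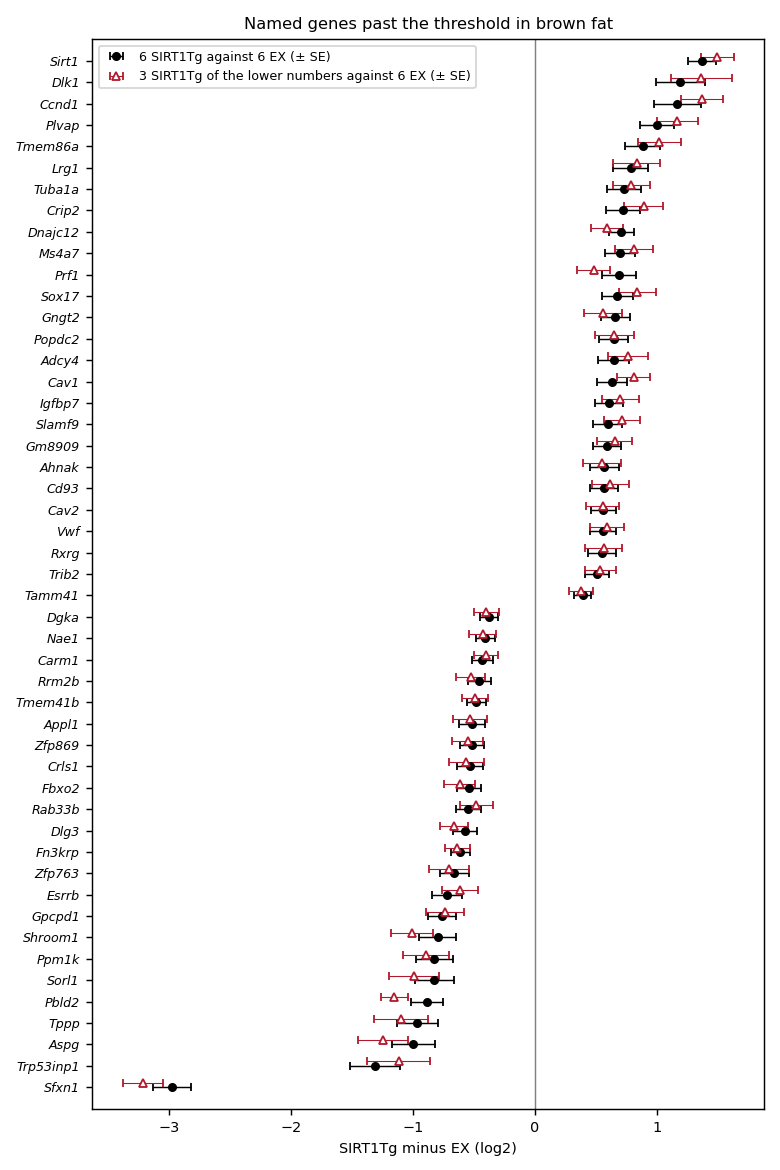
Difference SIRT1Tg minus EX (log2, ± SE) of the 49 features with a gene symbol that passed the threshold, ordered by size. Black circles are 6 against 6 arrays, open triangles the 3 SIRT1Tg arrays of the lower numbers against the same 6 EX arrays: each gene keeps its side of 0, from -2.98 for Sfxn1 to 1.37 for Sirt1.

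Sirt1, the transgene, checks the labels. Its signal was 7.91, 8.18 and 8.54 (lowest, median and highest) on the SIRT1Tg arrays and 6.62, 6.84 and 7.15 on the EX arrays. Every SIRT1Tg array lay above every EX, WT and CR array, the highest of which was a WT array at 7.21. Sirt1 was 1.37 ± 0.11 (SE) higher in SIRT1Tg than in EX, a 2.58-fold difference (adjusted p = 3.74e-05). In the lower numbers the difference was 1.5 (adjusted p = 0.00108), and without the arrays high in muscle genes it was 1.5 (adjusted p = 0.000548). Fitted over 96 arrays with slide fixed it was 1.02 and did not pass (adjusted p = 0.121). EX minus WT was -0.19 for Sirt1 and did not pass (adjusted p = 0.35) in the fit of all 24 BAT arrays with number series as a term, where SIRT1Tg minus WT was 1.37 (adjusted p = 2e-09). Both of these comparisons use the same WT arrays; 39 features (0.389%) passed in SIRT1Tg minus WT and 461 (4.6%) in EX minus WT.

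Of the 17 measured sirtuin and NAD genes Sirt1 alone passed, beside 0.509% of all features. The mitochondrial deacetylase Sirt3 averaged 10.23 ± 0.30 (SD, n = 6) in SIRT1Tg and 9.98 ± 0.26 (SD, n = 6) in EX, a difference of 0.25 (adjusted p = 0.488). The mitochondrial desuccinylase Sirt5 differed by -0.27 (adjusted p = 0.639).

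Of 14 measured genes among the 12 on either side of Sirt1 on chromosome 10, 2 passed, in opposite directions, and 12 did not (0.509% of all features passed). In gene order (RefSeq, GRCm38.p6, used for order only), Dnajc12 is the next protein-coding gene after Sirt1 and encodes a co-chaperone of the aromatic amino acid hydroxylases. It read 5.51, 5.92 and 6.08 on SIRT1Tg and 4.99, 5.11 and 5.36 on EX arrays. The groups did not overlap, and Dnajc12 was 0.71 ± 0.11 higher in SIRT1Tg (adjusted p = 0.0122). SIRT1Tg minus WT was 0.54 for Dnajc12 and did not pass (adjusted p = 0.0665). The CR arrays, without the transgene, had a Dnajc12 mean of 5.75, near the SIRT1Tg mean of 5.86 and above the WT mean of 5.32. All CR animals have higher numbers, so number series and condition are mixed in that mean. In the lower numbers the Dnajc12 difference from EX was 0.59 (adjusted p = 0.114), and without the arrays high in muscle genes 0.62 (adjusted p = 0.366). A second, dim Dnajc12 probe that failed the detection filter showed no such difference (-0.01). On the probe used, SIRT1Tg minus EX of Dnajc12 was 1.26 in epididymal white fat and 0.87 in skeletal muscle. By an interaction term the BAT difference did not depart from either (adjusted p = 0.518 and 0.524). Pbld2, 5 protein-coding genes before Sirt1, read 5.41, 5.83 and 6.33 on SIRT1Tg and 6.63, 6.72 and 6.91 on EX arrays. Its difference was -0.88 ± 0.13 (adjusted p = 0.0124), and in the lower numbers its difference was -1.15 (adjusted p = 0.00108). It stood at 6.02 ± 0.62 (SD, n = 6) in WT, near the SIRT1Tg mean of 5.85 and below the EX mean of 6.74. Herc4, the gene directly before Sirt1, differed by 0.22 (adjusted p = 0.221), and Pbld1, beside Pbld2, by -0.22 (adjusted p = 0.666).

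**Figure D3:**
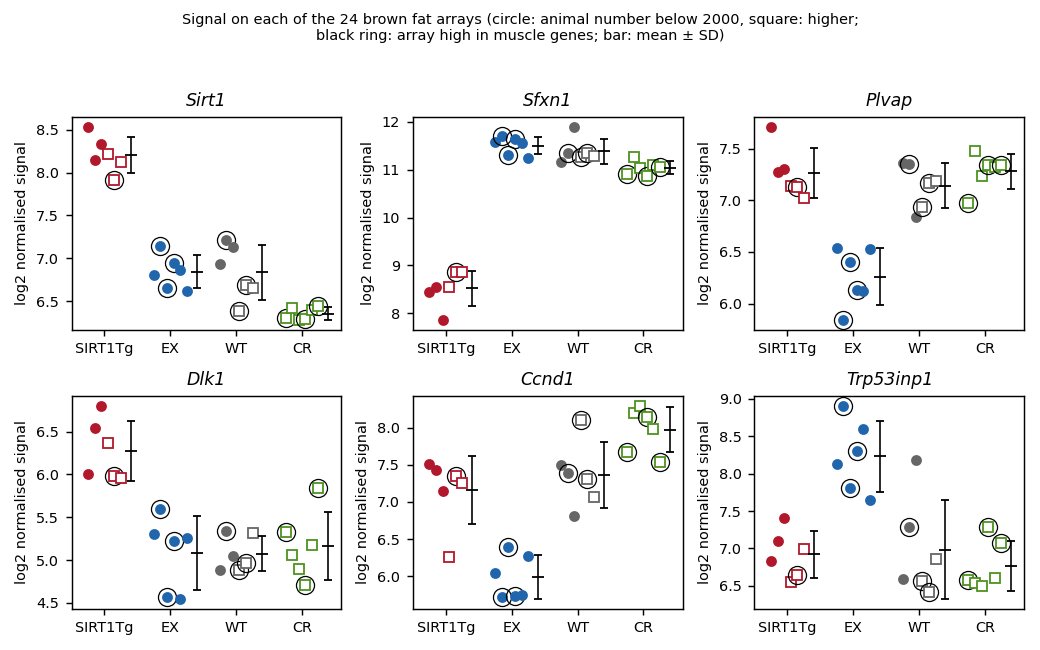
Log2 normalised signal of Sirt1, Sfxn1, Plvap, Dlk1, Ccnd1 and Trp53inp1 on each of the 24 BAT arrays, by condition, with mean ± SD (n = 6) beside each group. Circles are animal numbers below 2000, squares higher numbers, and black rings mark arrays high in muscle genes. Sirt1 and Sfxn1 set the SIRT1Tg arrays apart from all 3 other conditions, whereas for Plvap, Ccnd1 and Trp53inp1 the EX arrays are the group farthest from WT.

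Sfxn1, a serine transporter of the inner mitochondrial membrane that feeds one-carbon metabolism, showed the largest difference. It read 7.86, 8.55 and 8.87 on the SIRT1Tg arrays and 11.23, 11.56 and 11.71 on the EX arrays. The highest SIRT1Tg reading thus lay far below the lowest reading of the other 3 conditions, 10.87 on a CR array. The difference was -2.98 ± 0.15, or 7.87-fold (adjusted p = 1.12e-07), and it was -3.21 in the lower numbers (adjusted p = 6.06e-06). A second Sfxn1 probe differed by -2.78. Without the arrays high in muscle genes it was -3.0 (adjusted p = 6.65e-05). Against WT it was -2.86 (adjusted p = 2.36e-12), while EX minus WT was 0.20 (adjusted p = 0.537). Sfxn1 and Sirt1 were the only features whose BAT difference departed from the same difference in epididymal white fat (eWAT) of these conditions, by an interaction term over 9793 features (0.0204% passing). In eWAT Sfxn1 differed by -0.57, which puts the BAT difference -2.41 further down (adjusted p = 8.21e-07). In eWAT Sirt1 differed by 2.45, so that its BAT difference was -1.1 relative to it (adjusted p = 0.00561).

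For Dlk1, Fn3krp and Zfp763, SIRT1Tg lay apart from WT and EX, which were at like levels. Dlk1, the preadipocyte factor that holds back adipocyte differentiation, read 5.96, 6.18 and 6.80 on SIRT1Tg and 4.54, 5.24 and 5.59 on EX arrays, with a WT median of 5.01. The SIRT1Tg arrays lay above all EX and WT arrays. Dlk1 was 1.19 ± 0.20 higher than in EX (adjusted p = 0.0229) and 1.20 higher than in WT (adjusted p = 0.00709). In the lower numbers the difference was 1.37 (adjusted p = 0.0715), and without the arrays high in muscle genes 1.30 (adjusted p = 0.169). Fn3krp, a kinase that acts on sugar adducts of proteins, was above background on 0 of 6 SIRT1Tg arrays and on 6 of 6 EX arrays. Its measured means were 4.34 and 4.95, and it was at least 1.41-fold lower in SIRT1Tg, against the lowest signal above background (adjusted p = 0.00623). Zfp763, a zinc finger gene, read 4.26, 4.75 and 4.84 on SIRT1Tg, 5.02, 5.38 and 5.66 on EX and a median of 5.39 on WT arrays, with 5 of 6 SIRT1Tg arrays above background. Its difference of -0.66 ± 0.12 passed (adjusted p = 0.0341), while SIRT1Tg minus WT was -0.67 (adjusted p = 0.0665). The CR arrays, at a Zfp763 median of 4.77 (4.41 to 5.48), lay with SIRT1Tg. A second Zfp763 probe differed between SIRT1Tg and EX by -0.25.

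By a Pearson correlation over the 24 BAT arrays, the profiles most like that of Sirt1 were those of Ces1f (0.812), a carboxylesterase, Dlk1 (0.806) and Slc4a8 (0.785), a bicarbonate transporter. The 24 arrays fall into 4 conditions and 2 number series, and some share a slide, so these values are descriptions. Ces1f differed from EX by 0.44 ± 0.18 (adjusted p = 0.298) and Slc4a8 by 0.31 ± 0.11 (adjusted p = 0.22), and neither passed.

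Plvap, Sox17 and Vwf, known from endothelium, were higher in SIRT1Tg than in EX. Plvap, which forms the diaphragms of endothelial fenestrae and caveolae, read 7.02, 7.2 and 7.71 on SIRT1Tg and 5.84, 6.27 and 6.54 on EX arrays, so that the groups did not overlap. It was 1.0 ± 0.14 higher (2.0-fold, adjusted p = 0.0102), 1.17 in the lower numbers (adjusted p = 0.0344) and 0.89 without the arrays high in muscle genes (adjusted p = 0.199). The WT median of 7.18 lay with the SIRT1Tg arrays: SIRT1Tg minus WT was 0.12 (adjusted p = 0.678) and EX minus WT was -0.98 (adjusted p = 0.000473). Sox17, a transcription factor of arterial endothelium, read 6.07, 6.26 and 6.64 against 5.35, 5.62 and 5.92. Its difference was 0.68 ± 0.13 (adjusted p = 0.0343), and here WT, at a median of 5.71, lay with EX. SIRT1Tg minus WT was 0.60 for Sox17 and did not pass (adjusted p = 0.0695). In the lower numbers the Sox17 difference from EX was 0.84 (adjusted p = 0.0619). Sox17 passed in 2 of the 12 fits that left out 1 array. A second Sox17 probe differed by 0.39. Vwf, the adhesive glycoprotein that endothelial cells store for haemostasis, read 6.88, 6.98 and 7.29 against 6.18, 6.48 and 6.74, without overlap. It differed by 0.56 ± 0.11 (adjusted p = 0.0341).

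The caveolins, which shape the membrane pits abundant in adipocytes and endothelial cells, were both higher over all animals. Cav1 read 11.59, 11.96 and 12.15 on SIRT1Tg and 11.09, 11.20 and 11.68 on EX arrays, with 1 SIRT1Tg array inside the EX range. Its difference was 0.63 ± 0.12 (adjusted p = 0.0343), or 0.81 in the lower numbers (adjusted p = 0.054). Cav2, its neighbour and partner, read 5.95, 5.97 and 6.23 against 5.17, 5.53 and 5.75, without overlap, and differed by 0.56 ± 0.10 (adjusted p = 0.0341). A second, dim Cav2 probe that failed the detection filter showed -0.02. Without the arrays high in muscle genes the differences were 0.61 for Cav1 and 0.56 for Cav2 (adjusted p = 0.448 and 0.401). Fitted over 96 arrays with slide fixed they were 0.15 and 0.43 (adjusted p = 0.861 and 0.554), and each gene passed in 2 of the 12 fits that left out 1 array. Cavin2, a coat protein of caveolae named here after its values were seen, passed only in the lower numbers (0.72 ± 0.11, adjusted p = 0.0344) and differed by 0.41 over all animals (adjusted p = 0.221).

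Promoters of the caveolins, of Adcy4, an adenylyl cyclase gene that also was higher (0.65 ± 0.12, adjusted p = 0.0343), and of Igfbp7, a secreted protein of vascular cells that was higher too (0.61 ± 0.11, adjusted p = 0.0341), are shown as examples from genes past the threshold on the higher side, picked after their values were seen. They are the 150 bases before each RefSeq start (GRCm38.p6), 5′ to 3′ on the gene's strand. Capitals mark GGAA on either strand (TTCC on the strand shown), the core letters bound by ETS factors, which are prominent in endothelium. The first Cav1 start lies on the plus strand of chr6:17306185-17306334, the second on that of chr6:17307490-17307639, Cav2 on the plus strand of chr6:17281035-17281184, Igfbp7 on the minus strand of chr5:77408046-77408195, and Adcy4 on the minus strand of chr14:55784073-55784222.
Cav1 start 1: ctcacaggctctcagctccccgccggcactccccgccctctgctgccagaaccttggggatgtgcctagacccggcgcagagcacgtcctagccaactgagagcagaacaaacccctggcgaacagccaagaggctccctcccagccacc
Cav1 start 2: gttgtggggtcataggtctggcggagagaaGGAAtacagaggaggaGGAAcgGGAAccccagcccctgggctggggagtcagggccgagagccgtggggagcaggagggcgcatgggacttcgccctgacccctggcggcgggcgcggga
Cav2: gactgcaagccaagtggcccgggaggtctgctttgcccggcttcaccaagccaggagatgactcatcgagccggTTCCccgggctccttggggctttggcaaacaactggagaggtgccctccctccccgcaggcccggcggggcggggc
Igfbp7: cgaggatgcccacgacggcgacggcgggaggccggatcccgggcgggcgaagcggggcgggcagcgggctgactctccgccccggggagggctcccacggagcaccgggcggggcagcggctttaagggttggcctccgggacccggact
Adcy4: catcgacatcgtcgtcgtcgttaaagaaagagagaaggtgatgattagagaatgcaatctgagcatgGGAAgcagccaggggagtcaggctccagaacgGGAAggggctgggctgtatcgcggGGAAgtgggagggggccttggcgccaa
The letters occur 0 and 3 times before the Cav1 starts, once before Cav2, 0 times before Igfbp7 and 3 times before Adcy4. Of the 26 named genes higher in SIRT1Tg, 18 had promoters in the RefSeq table, and 17 of their 22 windows held the letters (77.3%), against 80.8% of all 32851 windows of that length. The share in these genes is thus near that of all promoters.

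As a whole, 16 of 18 measured endothelial genes had a positive difference, with a median of 0.19 against 0.00 over all features, where 51% were above 0. Vwf and Sox17 passed, and the other 16 did not, beside 0.509% called over all features. In the lower numbers the median was 0.34 and in the higher numbers 0.08. With the muscle level as a covariate the median was 0.08 and none of the 18 passed. The list's mean level ran from 7.83 to 8.19 on the SIRT1Tg arrays and from 7.47 to 7.90 on the EX arrays, so that the groups overlapped. Emcn, endomucin, differed by 0.37 (adjusted p = 0.196) and Sox18 by 0.56 (adjusted p = 0.215). In bulk tissue fewer cells of a type and less RNA per cell cannot be told apart. None of the 15 measured VEGF and hypoxia genes passed (median -0.03).

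Ccnd1, cyclin D1, which drives entry into the cell cycle, read 6.25, 7.30 and 7.50 on SIRT1Tg and 5.73, 5.90 and 6.39 on EX arrays. A single SIRT1Tg array, SIRT1Tg_2207, lay within the EX range, and the other 5 lay at 7.15 or above. Ccnd1 was 1.17 ± 0.20 higher (adjusted p = 0.0229), 1.37 in the lower numbers (adjusted p = 0.0157), and its 2 other probes differed by 1.19 and 0.35. SIRT1Tg minus WT was -0.21 (adjusted p = 0.682) and EX minus WT was -1.41 (adjusted p = 0.00186). No other of the 16 measured cell cycle genes passed (0.509% of all features did), and the list's median was -0.02.

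Lrg1, a secreted glycoprotein of the acute phase that also acts on vessels, read 9.64, 9.78 and 10.08 against 8.65, 8.98 and 9.55. It was 0.78 ± 0.15 higher (adjusted p = 0.0341). Tmem86a, a lysoplasmalogenase, read 7.73, 7.90 and 8.25 against 6.80, 6.86 and 7.46 and was 0.88 ± 0.14 higher (adjusted p = 0.0174). In both genes the groups did not overlap, SIRT1Tg lay near WT (-0.14 and 0.18, adjusted p = 0.745 and 0.564), and EX lay below WT (-1.11 and -0.77, adjusted p = 0.00186 and 0.00567). Crip2, a LIM domain protein, and Tuba1a, an alpha tubulin, were 0.72 ± 0.14 and 0.73 ± 0.14 higher, both with adjusted p = 0.0341 and without overlap.

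Of the immune genes, Ms4a7 and Prf1 were among the largest rises. Ms4a7, a membrane protein of macrophages, read 5.43, 5.71 and 5.76 on SIRT1Tg and 4.72, 4.81 and 5.44 on EX arrays, with the lowest SIRT1Tg array just inside the EX range, and was highest in WT, at 5.58, 6.02 and 6.96. Its difference was 0.70 ± 0.12 (adjusted p = 0.0341), while EX minus WT was -1.34 (adjusted p = 0.00152) and SIRT1Tg minus WT was -0.56 (adjusted p = 0.138). Prf1, perforin of cytotoxic lymphocytes, read 7.38, 7.92 and 8.41 against 7.04, 7.17 and 7.45, with overlap, and differed by 0.69 ± 0.14 (adjusted p = 0.0415). A dim second Prf1 probe that failed the detection filter differed by 0.03.

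The macrophage list stood at a median of 0.24, 18 of its 22 members were above 0 (51% of all features), and Ms4a7 passed, 1 of 22 beside 0.509% of all features. Its median was 0.39 in the lower numbers, with 22 of 22 above 0, and 0.10 in the higher numbers, with 13 of 22 above 0. Its mean level was 6.14, 6.27 and 6.77 on SIRT1Tg, 5.97, 6.09 and 6.50 on EX, and 6.38, 6.67 and 7.54 on WT arrays, with overlap between SIRT1Tg and EX. Antigen presentation genes of the MHC had the second highest median of the 39 lists, 0.35. Of the 19 measured, 16 were above 0 (51% of all features), 12 had an unadjusted p under 0.05 (13.3% of all features), and none passed the threshold. Their mean level did not overlap between SIRT1Tg (7.21, 7.25 and 7.44) and EX arrays (6.83, 6.96 and 7.14). WT stood at 7.18, 7.48 and 7.70. No single member separated SIRT1Tg from EX without overlap (1.56% of all features did), and the list is 1 of 39 looked at. Cd74, the invariant chain, differed by 0.47 (adjusted p = 0.143) and H2-Eb1, a class II chain, by 0.56 (adjusted p = 0.143). The MHC median was 0.37 in the lower numbers, 0.32 in the higher numbers and 0.35 without the arrays high in muscle genes. None of the 13 T, B and NK cell genes passed (median 0.11), and none of the 26 interferon response genes (median -0.09).

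**Figure D4:**
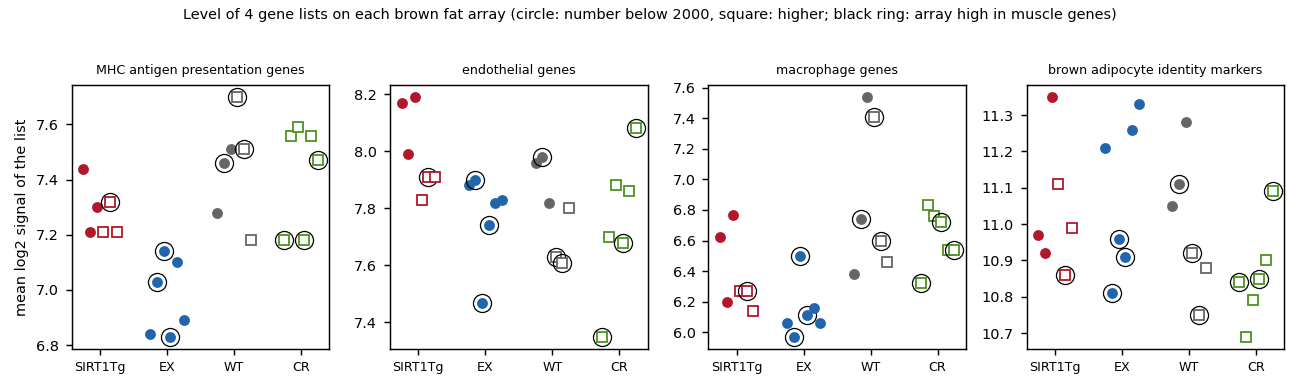
Mean log2 normalised signal of 4 gene lists on each of the 24 BAT arrays, by condition. Circles are animal numbers below 2000, squares higher numbers, and black rings mark arrays high in muscle genes. The MHC level of every SIRT1Tg array (7.21 to 7.44) lies above that of every EX array (6.83 to 7.14), while the other 3 lists overlap between these groups.

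Among 27 collagen and extracellular matrix genes 24 were above 0 (51% of all features), with a median of 0.19, and none passed over all animals. The median was 0.37 in the lower numbers, with 25 above 0, and 0.13 in the higher numbers, with 17 above 0. Eln, elastin, passed in the lower numbers (0.80 ± 0.13, adjusted p = 0.0496) and differed by 0.59 over all animals (adjusted p = 0.0762). Col6a1 averaged 8.54 ± 0.20 in SIRT1Tg, 7.99 ± 0.36 in EX and 9.06 in WT (difference 0.55, adjusted p = 0.136). The list of adipokines and markers of white fat expansion had 11 of 14 members above 0 and a median of 0.20, with Cav1 and Cav2 past the threshold, 2 of 14 beside 0.509% of all features. Leptin (Lep) averaged 6.13 ± 1.07 in SIRT1Tg and 5.33 ± 0.58 in EX, a difference of 0.80 (adjusted p = 0.425), and adiponectin (Adipoq) differed by 0.26 (adjusted p = 0.23). Of 49 cytosolic ribosomal protein genes 43 were above 0 (median 0.13), 14 had an unadjusted p under 0.05 and 5 separated the groups without overlap. Over all features these shares were 51%, 13.3% and 1.56%. None of the 49 passed, beside 0.509% of all features.

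The lower side was led, after Sfxn1, by Trp53inp1, a p53-inducible regulator of stress responses and autophagy. It read 6.55, 6.92 and 7.41 on SIRT1Tg and 7.64, 8.22 and 8.91 on EX arrays, without overlap. Its difference was -1.31 ± 0.20 (adjusted p = 0.0158), or -1.12 in the lower numbers (adjusted p = 0.114) and -1.15 without the arrays high in muscle genes (adjusted p = 0.221). A second probe differed by -0.83. The WT median of 6.73 lay with SIRT1Tg, and EX minus WT was 0.97 (adjusted p = 0.0288), against -0.06 for SIRT1Tg minus WT (adjusted p = 0.929).

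Aspg, Gpcpd1 and Ppm1k, which encode enzymes, were lower in SIRT1Tg. Aspg, an asparaginase, read 8.4, 9.02 and 9.41 against 9.48, 9.92 and 10.42, without overlap. It differed by -1.0 ± 0.18 (adjusted p = 0.0341), by -1.25 in the lower numbers (adjusted p = 0.0496), and EX minus WT was 1.20 (adjusted p = 0.00567). Gpcpd1, a phosphodiesterase that breaks down glycerophosphocholine, read 7.50, 7.70 and 7.90 against 8.09, 8.51 and 8.78 and differed by -0.76 ± 0.11 (adjusted p = 0.0122). A second, dim Gpcpd1 probe differed by 0.07. Ppm1k, the phosphatase that activates branched-chain keto acid breakdown, read 6.93, 7.15 and 7.61 against 7.39, 8.09 and 8.31, with overlap. Its difference of -0.82 ± 0.15 passed (adjusted p = 0.0341). It was the single member of 17 branched-chain amino acid genes to do so (list median -0.02), beside 0.509% of all features.

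Esrrb, an orphan nuclear receptor related to the estrogen receptors, read 4.49, 4.78 and 5.16 on SIRT1Tg, 5.42, 5.50 and 5.69 on EX and a median of 4.71 on WT arrays. The EX arrays lay above all SIRT1Tg and WT arrays, and the difference was -0.72 ± 0.12 (adjusted p = 0.0229). It was the single called member of 11 PGC-1 and ERR regulators, beside 0.509% of all features. Ppargc1a, the gene of PGC-1alpha, averaged 9.27 ± 1.0 in SIRT1Tg and 8.58 ± 1.12 in EX, a difference of 0.69 ± 0.52 (adjusted p = 0.588). Tfam, the packaging factor of mitochondrial DNA, differed by -0.19 (adjusted p = 0.411).

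Tppp, Sorl1 and Shroom1 were 3 further falls. Tppp, which promotes tubulin polymerisation, read 6.17, 6.74 and 6.98 against 7.16, 7.74 and 8.14 and differed by -0.96 ± 0.17 (adjusted p = 0.0338). Its second probe differed by -0.21. Sorl1, a sorting receptor between Golgi and endosomes, read 5.46, 6.10 and 6.27 against 6.43, 6.79 and 7.13 and differed by -0.83 ± 0.16 (adjusted p = 0.0363). Shroom1, an actin-associated protein, read 5.1, 5.6 and 5.87 against 6.11, 6.32 and 6.92 and differed by -0.80 ± 0.15 (adjusted p = 0.0341). All 3 were without overlap, and in all 3 EX exceeded WT by 1.15, 1.12 and 1.1 (adjusted p = 0.00867, 0.00861 and 0.0055).

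The remaining features past the threshold fall outside the naming rule and are listed for completeness. Higher in SIRT1Tg, by 0.39 to 0.66, were Gngt2, Popdc2, Adcy4, Igfbp7, Slamf9, Gm8909, Ahnak, Cd93, Rxrg, Trib2 and Tamm41. Lower, by a difference of -0.57 to -0.38, were Dlg3, Rab33b, Fbxo2, Crls1, Zfp869, Appl1, Tmem41b, Rrm2b, Carm1, Nae1 and Dgka. A probe without a symbol stood on each side. Of these, Cd93, a surface receptor known from vascular cells, was 0.56 ± 0.12 higher (adjusted p = 0.0472). Of 21 further probes of the called genes that passed the detection filter, 18 had the sign of the probe used and 10 had an unadjusted p under 0.05. Of 8 dim probes that failed the filter, 4 had that sign.

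Several lists of genes for which brown fat and SIRT1 are best known held no member past the threshold. Over all features 0.509% passed, so the lack of called members in lists of this size is near that share. None of 17 thermogenic genes passed, with a median of 0.03. Elovl3, a fatty acid elongase induced by cold, averaged 6.64 ± 0.88 in SIRT1Tg, 7.63 ± 0.76 in EX and 6.57 in WT, a difference of -0.99 ± 0.40 (adjusted p = 0.299). Ucp1 differed by 0.18 ± 0.12 (adjusted p = 0.547), and by 0.00 without the arrays high in muscle genes. None of 72 oxidative phosphorylation subunits passed (median 0.03), none of 17 citric acid cycle enzymes (-0.02), none of 27 PPAR target and fatty acid oxidation genes (-0.01), and none of 52 mitochondrial ribosomal proteins (0.03). The lowest value in the first of these lists was Cox6a2, a subunit of heart and muscle (-2.60, adjusted p = 0.384), which was -0.86 without the arrays high in muscle genes.

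The median of lipid synthesis genes moved with the animals compared. The 17 measured lipogenesis genes had a median of -0.23, with 4 above 0 (51% of all features) and none past the threshold (0.509% of all features). In the lower numbers that median was -0.43 and in the higher numbers 0.10, and without the arrays high in muscle genes it was -0.07. Acly, ATP citrate lyase, averaged 12.26 ± 1.07 in SIRT1Tg and 12.95 ± 0.75 in EX (difference -0.69, adjusted p = 0.528), and differed by -1.46 in the lower numbers. Elovl5, an elongase of polyunsaturated fatty acids, differed by -0.35 ± 0.09 (adjusted p = 0.107). The 17 cholesterol synthesis enzymes had a median of -0.19, with 4 above 0 and none past the threshold. Sqle, squalene epoxidase, differed by -0.44 ± 0.14 (adjusted p = 0.178). Aqp7, the glycerol channel of adipocytes, differed by 0.60 ± 0.18 (adjusted p = 0.15), and none of 17 lipolysis and fatty acid uptake genes passed (median 0.06).

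Stress and signalling lists likewise held no called member, beside 0.509% of all features. The 20 FoxO and autophagy genes had a median of -0.06; Fbxo32, an atrophy-linked ubiquitin ligase abundant in muscle, differed by -1.68 ± 0.54 (adjusted p = 0.183), and by -0.74 without the arrays high in muscle genes. Among 22 genes of ER and integrated stress (median 0.01) Chac1 differed by -1.66 ± 0.57 (adjusted p = 0.215) and Asns, asparagine synthetase, by 0.28 ± 0.08 (adjusted p = 0.161). The medians were -0.03 for 16 clock genes, -0.03 for 10 sympathetic and cAMP signalling genes, -0.04 for 19 immediate early genes, -0.06 for 16 glucocorticoid responsive genes, -0.08 for 20 heat shock genes and 0.00 for 23 NRF2 antioxidant genes. Rora, a clock-linked nuclear receptor, differed by -0.51 ± 0.13 (adjusted p = 0.102). The other metabolic lists had no called member and medians of -0.09 (26 glycolysis genes), -0.11 (6 creatine cycle genes), 0.00 (13 triglyceride assembly enzymes) and 0.08 (10 lipid droplet coat proteins). Markers of other cell types had medians of 0.36 for 4 erythroid genes, which was -0.18 in the lower numbers, -0.39 for 6 hepatocyte genes, 0.09 for 7 Schwann cell and nerve genes and -1.20 for 10 slow fibre muscle genes, with no called member.

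**Figure D5:**
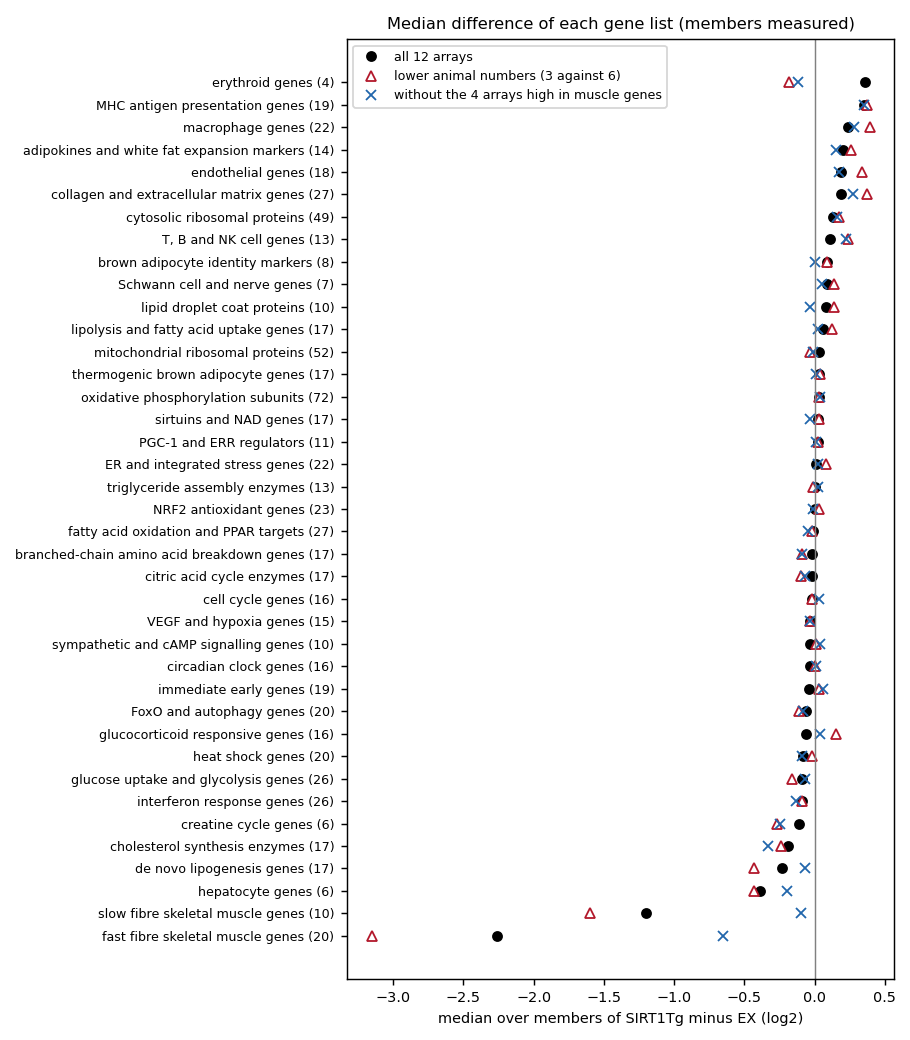
Median over the measured members (number in brackets) of SIRT1Tg minus EX in log2, for the 39 gene lists. Black circles are all 12 arrays, open triangles the 3 SIRT1Tg arrays of the lower numbers against the 6 EX arrays, and crosses the comparison without the 4 arrays high in muscle genes. Apart from the 2 muscle lists all medians over 12 arrays lie between -0.39 and 0.36.

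Number series divided the BAT arrays beside condition. In the fit over 24 arrays its term passed for 588 features (5.87%). With that term, SIRT1Tg minus EX passed for 341 features, 155 higher and 186 lower, among them 46 of the 51. The series difference there is estimated from WT and SIRT1Tg, which have 3 animals of each series, since EX and CR each lie in 1 series. The 3 SIRT1Tg animals of the higher numbers against EX gave 8 features past the threshold, 5 of them among the 51.

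The difference in BAT also departed from that in skeletal muscle of the same conditions, for 160 of 8870 features (1.8%). Among the named genes the 160 features included Sfxn1, Gpcpd1, Tmem86a, Lrg1, Dlk1, Tppp, Pbld2, Plvap and Fn3krp. Gpcpd1 differed by 0.50 in muscle, opposite to its BAT sign (interaction -1.26, adjusted p = 0.000582). Lrg1 differed by -0.48 in muscle against 0.78 in BAT (interaction 1.26, adjusted p = 0.00369). For Sirt1 the muscle difference was 1.66, and the interaction did not pass (adjusted p = 0.309).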

How the data were processed

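The authors deposited the signal intensity of 25697 probes without normalisation. GenomeStudio and Partek are the tools that the submitters' processing notes list; the sources used here give no version, setting or genome build. The deposited series matrix of log2 values (column median 6.72, sorted columns within 0.0037, so taken as quantile-normalised) served as an alternative.

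Values were recomputed in R 4.3.3 with limma 3.58.1: background from the mode of each array's log2 intensity density (bandwidth 0.03), normexp with an offset of 16, and quantile normalisation over the 24 BAT arrays. The offset makes differences of dim genes too small. The 13303 probes above the upper 0.05 tail of background on 6 or more BAT arrays were kept, named through RefSeq gene IDs (GRCm38.p6; 23962 of all probes, with 1719 unnamed), and reduced to the brightest probe a gene, 10025 features. Groups were compared with lmFit and eBayes and Benjamini-Hochberg adjustment. The fit of all 24 BAT arrays added number series, and tissue interactions used animal as a random block. P-values measure the spread between animals, and the number of arrays limits precision.

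Named are Sirt1, the 12 largest rises and falls among symbols past the threshold with the same sign in the lower numbers, up to 4 called members a list and the 3 profiles most like Sirt1. Members and the 39 lists were chosen with earlier results of these data known. The scripts were tested on simulated data. Alternatives covered normalisation, filters, weights, slide, number series, muscle level and single arrays; the fit of 96 arrays without slide and the stricter removal by muscle level were added after seeing the data.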

Additional observations from a re-analysis of the deposited data

Results flagged for a closer look

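In groups of 6 arrays, 13 of the 136 groups tested held an array far from the other 5 by Dixon's criterion, which chance gives in about 1 group in 20. Ccnd1 stood at 6.25 on SIRT1Tg_2207, below the other SIRT1Tg arrays at 7.15 to 7.50. Shroom1 stood at 6.92 on EX_1969, above the other EX arrays at 6.11 to 6.41.

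The other such values are mean levels of gene lists. EX_1966 was low in oxidative phosphorylation subunits (11.23 against 11.41 to 11.51) and in lipogenesis genes (9.46 against 10.12 to 10.37). EX_1969 was low in genes of fatty acid oxidation (10.87 against 11.12 to 11.25) and of lipolysis and fatty acid uptake (9.01 against 9.22 to 9.31). EX_1970, an array high in muscle genes, was high in macrophage genes (6.5 against 5.97 to 6.16), in T, B and NK cell genes (5.91 against 4.88 to 5.08) and in hepatocyte genes (7.11 against 5.24 to 5.84). SIRT1Tg_1953 was low in mitochondrial ribosomal proteins (9.14 against 9.27 to 9.34) and high in genes of ER and integrated stress (6.97 against 6.64 to 6.74). SIRT1Tg_2222 was high in fast fibre genes (8.92 against 4.64 to 6.11) and in slow fibre genes (7.61 against 5.34 to 5.55).

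Differences between tissues passed an interaction test, which had no term for the muscle level, for several named genes. Relative to eWAT, the BAT difference was -1.1 for Sirt1 (adjusted p = 0.00561) and -2.41 for Sfxn1 (adjusted p = 8.21e-07). Relative to muscle it was -2.47 for Sfxn1 (adjusted p = 2.81e-08), -1.26 for Gpcpd1 (adjusted p = 0.000582) and 1.19 for Tmem86a (adjusted p = 0.00321). It was 1.26 for Lrg1 (adjusted p = 0.00369), 1.08 for Dlk1, -1.06 for Tppp and -0.93 for Pbld2 (adjusted p = 0.0127 for each of these 3). For Fn3krp it was -0.54 (adjusted p = 0.0253) and for Plvap 0.64 (adjusted p = 0.0258).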

How the results depend on the processing

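The comparison rests on 12 arrays, and the count past the threshold moved with most choices, while each of the 51 features kept its sign under every alternative run. Over all animals, 9 of 19 alternatives left the count within 1.5 times of 51 (39 to 73). It was 77 without background correction, 80 with array weights, 18 with no filter on dim probes, 341 with number series as a term over 24 arrays, 14 with the lower numbers alone and 8 with the higher numbers alone. It was 2 without the arrays high in muscle genes, 3 with the muscle level as a covariate, 3 without every array more than 1 above the lowest muscle level, and 3 with slide as a fixed term over 96 arrays. Fewer arrays enter where arrays were left out; otherwise the cause was not tested. Leaving out 1 array gave 8 (without EX_1974) to 90 (without EX_1976), and each of the 12 omissions, 6 per group, moved the count by more than 1.5 times.

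In the lower numbers the count of 14 became 9 with the matrix values, 40 without background correction, 8 with median scaling, 9 with no filter, 3 without the arrays high in muscle genes, 3 with the muscle covariate, 27 with trend and robust fitting, 65 over 96 arrays without slide and 1 under the stricter muscle removal. Single omissions gave 3 (without SIRT1Tg_1953 or EX_1966) to 11 (without SIRT1Tg_1954), and 7 of 9 moved it by more than 1.5 times. Sfxn1 passed in 19 of 19 alternatives and 12 of 12 omissions over all animals, and Sirt1 in 18 and 12, missing with slide as a fixed term (1.02, adjusted p = 0.121). With slide fixed, Ces1f turned to -0.12 over all animals and -0.09 in the lower numbers. No paired analysis was possible because the SIRT1Tg and EX groups share no animal number.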

Other observations

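The 3 groups below were put together after the values were seen and were therefore not tested. That each holds a called gene is for the same reason no result. Over all features 0.509% were called. Of 19 measured genes known as p53 targets, Trp53inp1 and Rrm2b, a ribonucleotide reductase subunit, were lower in SIRT1Tg past the threshold. Rrm2b averaged 7.05 ± 0.10 (SD, n = 6) in SIRT1Tg, 7.51 ± 0.19 in EX and 7.12 in WT (difference -0.46 ± 0.09, adjusted p = 0.0497). The other 17 did not pass, among them Cdkn1a (-0.02, adjusted p = 0.984), Mdm2 (0.19, adjusted p = 0.507) and Sesn1 (-0.61, adjusted p = 0.172), and the group's median was -0.10.

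Of 8 measured genes of cardiolipin synthesis and remodelling, 2 passed in opposite directions, beside 0.509% of all features. Tamm41, which makes the CDP-diacylglycerol of mitochondria, averaged 7.95 ± 0.03 in SIRT1Tg and 7.56 ± 0.11 in EX (difference 0.39 ± 0.07, adjusted p = 0.0341). Crls1, cardiolipin synthase, averaged 10.10 ± 0.11 and 10.63 ± 0.23 (difference -0.53 ± 0.11, adjusted p = 0.039). The probes of Crls1 disagreed, with 3 others at 0.01, -0.24 and -0.17, while those of Tamm41 were at 0.17 and 0.16.

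Of 14 measured genes of serine and one-carbon metabolism Sfxn1 alone passed, beside 0.509% of all features. Its paralogs Sfxn4 and Sfxn5 differed by -0.21 (adjusted p = 0.611) and -0.09 (adjusted p = 0.801), and the folate enzyme Shmt1 by 0.30 (adjusted p = 0.317).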
